A study of Homo sapiens with 17 samples.

Results

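ND5, ND6, TRNE, and CYTB are the 4 genes that lie next to one another at the far end of the mitochondrial gene map, and their reads were taken from the feature counts of a J2 RIP-seq study of non-small cell lung carcinoma cells. The members were chosen by position: ND5 and CYTB on the plus strand of the reference and ND6 and TRNE on the minus strand between them, 4 of the 37 genes of the annotation and 4 of its 38 CDS, rRNA, tRNA, and D-loop rows. J2 is an antibody against double-stranded RNA (dsRNA), and RIP-seq sequences the RNA that the antibody pulls down from a lysate. The 17 libraries came from 3 human lung adenocarcinoma cell lines, H1437, H23, and PC9: 3 untreated replicates of each line, 1 untreated library and 1 library with IMT1 of each line, and 1 H23 library with ADAR1 knockdown (KD) beside 1 H23 control, which by the study's description received a non-targeting siRNA (siNTC). IMT1 is an inhibitor of the mitochondrial RNA polymerase, and the labels give no dose or time for it. ADAR1 is an enzyme that edits adenosines in dsRNA, and the study lowered it with siRNA. The labels do not name the controls of the IMT1 and KD experiments as such, and alignment names were used to assign them. The replicates are numbered in the labels, and the study's legends describe the replicates of a line as independent experiments. Each P between lines thus measures the spread between these libraries. For IMT1, with 1 pair per line, P measures the spread between the 3 lines. A P of a ratio between genes against 1 pools the untreated replicates of all 3 lines.

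The human mitochondrial genome is a small circle whose strands, called heavy and light, are each transcribed from end to end into a long precursor RNA. The tRNAs punctuate these precursors, and their excision frees the mRNAs and rRNAs between them. ND5, ND6, and CYTB encode proteins of the respiratory chain: ND5 and ND6 are membrane subunits of complex I, which takes electrons from NADH, and CYTB is the cytochrome b of complex III. TRNE encodes the tRNA for glutamate. ND6 is the only mRNA read from the opposite strand, so that its RNA and the precursor that carries ND5 and CYTB are complementary and can pair as mitochondrial dsRNA (mtdsRNA).

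On the mitochondrial reference, chromosome MT, ND5 covers bases 12337 to 14148, ND6 covers 14149 to 14673, TRNE covers 14674 to 14742, and CYTB covers 14747 to 15887. ND5 and ND6 touch with 0 bases between them, as do ND6 and TRNE, and 4 bases separate TRNE from CYTB. The genes are 1812, 525, 69, and 1141 bases long, and each is 1 exon without introns. All 4 positions equal those of RefSeq. TRNL2 lies directly before ND5, and TRNT and TRNP follow CYTB. The counts carry no strand: the methods list no strand option for the counting, so that a read on ND6 or TRNE cannot be told from an antisense read of the precursor of ND5 and CYTB. For 3 of the 4 genes, the study designed primers that copy 1 strand only, and their gene-specific parts are shown because they are the means by which these strands can be told apart, which the counts cannot do. Capitals mark a primer that is identical to the forward primer used for the other strand of the same gene, and the names are the study's own.
ND5 Heavy: tttgggttgaggtgatgatg
ND5 Light: cattgtcgcatccaccttta
ND6 Heavy: ggttgaggtcttggtgagtg
ND6 Light: cccataatcatacaaagcccc
CYTB Heavy: GGATAGTAATAGGGCAAGGACG
CYTB Light: CAATTATACCCTAGCCAACCCC
The primers are 20 to 22 bases long, and no primer of this kind was listed for TRNE. For CYTB each copying primer thus serves as the forward primer of the opposite strand, whereas the ND5 and ND6 primers differ from those forward primers.

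The libraries held between 37113 and 6295486 total reads (median 547501), of which 1.14% to 47.2% mapped to the mitochondrial genome. Reads on a gene are given per 1000000 total reads of the library, mapped or not. In a bulk pulldown, fewer cells that hold such RNA and less of it per cell cannot be told apart. The counts cover mitochondrial features alone, so that neither the identity of the cell lines nor the loss of ADAR1 could be checked in them. The libraries of a line differed widely. H1437 replicate 1 was by far the deepest, but 0.994% of its mapped reads lay on the CDS and tRNA rows of the 4 genes, against 14.2% and 44.6% in the other H1437 replicates. In PC9 the share was 0.549%, 5.23%, and 18.2%, and in H23 it was 7.88%, 14.4%, and 6.79%.

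The CDS row of CYTB and the tRNA row of TRNE exceeded the gene rows of the same genes by nearly the same number of reads in most libraries. The annotation lists each gene more than once, as a gene row and as a CDS or tRNA row over the same bases, so that equal counts would follow if every read were counted on every row it touched. In H1437 replicate 3 the CDS row of CYTB held 9068 reads and its gene row 67, a gap of 9001 reads. In the same library the tRNA row of TRNE held 10837 reads and its gene row 1800, a gap of 9037. The gaps of these neighbours were thus nearly the same number of reads.

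The near equality held in most libraries. In H1437 replicate 2 the gaps were 1285 reads for CYTB and 1306 for TRNE. In H23 replicates 1, 2, and 3 they were 339 against 353, 5263 against 5272, and 1008 against 1004. In PC9 replicate 2 they were 402 against 396, and in PC9 replicate 3 the CYTB gap of 1402 reads was 97.6% of the TRNE gap. Of the 12 libraries with a TRNE gap of at least 100 reads, 9 had a CYTB gap within 10% of it, and in all 12 it was between 74.2% and 102% of it. The exceptions were the H1437 control of the IMT1 experiment (253 against 341 reads), H23 with IMT1 (1487 against 1687), and the H23 control of the KD experiment (279 against 372). H1437 replicate 1 stood apart, with a CYTB gap of 148 and a TRNE gap of 29 reads. Summed over the 17 libraries, the CYTB gap was 22528 reads and the TRNE gap 22993, or 98.0%, and it was 96.9% without H1437 replicate 3, the library with the largest gaps.

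At the other boundaries of the region the summed gaps lay further apart, or few libraries had a gap to compare. The ND6 gap summed to 839 reads, or 3.65% of the TRNE gap next to it (5.93% without H1437 replicate 3), and the gap of TRNT, the tRNA for threonine at the other end of CYTB, to 960 reads. The ND5 gap was 449 reads in all, and that of TRNL2, the leucine tRNA before it, was 346, with 1 library holding a TRNL2 gap of at least 100 reads. Over the 22 neighbouring pairs of a tRNA gene with a CDS or rRNA gene, the summed gaps of TRNE and CYTB were the closest to equal, with and without that library, and those of ND2 and TRNW (the tRNA for tryptophan) came next at 107%. The methods state in one place that overlapping reads were excluded and in another that reads could count for several features. Under the first, if each kind of row was counted separately, a read across TRNE and CYTB would be lost from gene rows alone. A read across ND5 and ND6, both CDS genes, would then be lost from both kinds of row, and the gaps could not show it. Whether single reads ran across these genes was not tested, since the alignments were not used here.

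**Figure D1:**
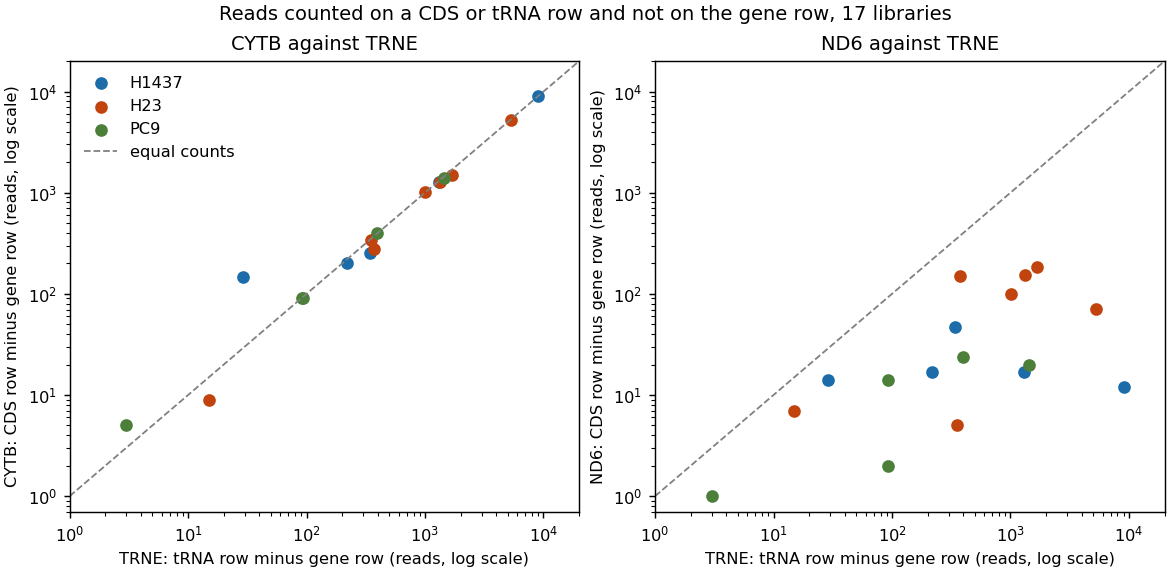
Reads counted on the CDS or tRNA row and not on the gene row of the same gene, for CYTB (left) and ND6 (right) against TRNE, 1 point per library on logarithmic axes, coloured by cell line; the dashed line marks equal counts. The CYTB points lie along the line, at 74.2% to 102% of TRNE in the 12 libraries with a TRNE gap of at least 100 reads, with H1437 replicate 1 (148 against 29) above it, whereas the ND6 points lie below it in all 17 libraries.

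The share of its CDS or tRNA row that a gene kept on its gene row differed between the 4 genes. ND5 kept between 92.1% and 100% in the 17 libraries (median 97.7%) and ND6 between 54.2% and 89.7% (median 80.0%). TRNE kept a median of 18.5%. It kept 0 of 29 reads in H1437 replicate 1 and 0 of 3 in PC9 replicate 1, and at most 65.4%, in the PC9 control of the IMT1 experiment. CYTB ranged the most widely. It kept 87.4%, 10.7%, and 0.739% in H1437 replicates 1, 2, and 3, 28.5%, 20.4%, and 72.1% in H23, and 84.4%, 43.5%, and 4.56% in PC9. High and low shares of CYTB thus occurred within every line, and the exact permutation test over the lines gave P = 0.904 (0.979 after Benjamini-Hochberg adjustment over the 4 genes). For ND5, ND6, and TRNE the exact permutation P was 0.979, 0.625, and 0.893. Summed over the libraries, CYTB kept 35.8%, the third lowest of the 13 CDS genes after ND1 and ATP8, and TRNE kept 18.3%, the sixth lowest of the 22 tRNA genes. ND5, at 97.1%, was the second highest of the CDS genes.

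ND5 was measured at 95.3, 700.0, and 156 reads per 1000000 total reads in H1437 replicates 1, 2, and 3 on its CDS row. It was at 1047, 2395, and 6850 in H23 and at 27.9, 1158, and 199 in PC9. All H23 libraries lay above all H1437 libraries, but PC9 replicate 2 lay above H23 replicate 1. The mean was 317 ± 333 (SD, n = 3) in H1437, 3430 ± 3037 in H23, and 462 ± 609 in PC9. H23 was thus 10.8 times H1437 and 7.43 times PC9, with exact permutation P = 0.10 and 0.20, where 3 libraries against 3 cannot give less than 0.10. Over the 3 lines the exact permutation P was 0.0643 (0.129 adjusted). The log2 ratio of the H23 mean to the average of the other line means was 3.14, and 1.20 when reads were set per mapped read. With each level taken on the log2 scale, the difference was 3.68 (exact permutation P = 0.139, 0.321 adjusted).

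ND6, the minus-strand subunit gene of complex I, ran in parallel at a lower count. Its CDS row was at 15.2, 176, and 42.8 reads per 1000000 total reads in H1437, at 253, 590.1, and 1515 in H23, and at 5.99, 426, and 85.7 in PC9. The replicates stood in the same order as for ND5 in each line, and PC9 replicate 2 again lay above H23 replicate 1. The means were 78.2 ± 86.2, 786 ± 653, and 172 ± 223 (SD, n = 3 each), so that H23 was 10.1 times H1437 and 4.56 times PC9 (exact permutation P = 0.10 and 0.20). Over the 3 lines the exact permutation P was 0.0607 (0.129 adjusted). The log2 ratio of the H23 mean to the average of the other line means was 2.65, or 0.76 per mapped read. With each level taken on the log2 scale, the difference was 3.49 (exact permutation P = 0.161, 0.321 adjusted). With the untreated library of the IMT1 experiment added to each line (n = 4), the adjusted permutation P of both ND5 and ND6 was 0.0477, and with the siNTC control of the KD experiment added too (n = 5 for H23) it was 0.0607.

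TRNE, the tRNA gene, varied widely within each line. Its tRNA row was at 4.61, 3166, and 15989 reads per 1000000 total reads in H1437, at 3516, 10467, and 2094 in H23, and at 5.99, 1016, and 2417 in PC9. The lowest library of H1437 and of PC9 was replicate 1, with 29 and 3 reads, and the ranges of the 3 lines overlapped. The means were 6387 ± 8465, 5359 ± 4480, and 1146 ± 1211 (SD, n = 3 each; exact permutation P = 0.475 over the lines). The exon row of TRNE equalled its tRNA row in 16 of 17 libraries, the exception being H1437 replicate 1 with 26 against 29 reads.

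CYTB gave a different picture on each kind of row. On the CDS row it was at 187, 2730, and 13379 reads per 1000000 total reads in H1437, at 3876, 10988, and 6099 in H23, and at 63.8, 1299, and 2032 in PC9. These ranges overlapped, H1437 replicate 3 being the highest of the 9 libraries, and the means of 5432 ± 6999, 6988 ± 3639, and 1131 ± 994 (SD, n = 3 each) gave an exact permutation P of 0.346 (0.462 adjusted). On the gene row, CYTB was at 163, 292, and 98.9 in H1437, at 1104, 2241, and 4398 in H23, and at 53.9, 564, and 92.7 in PC9. On this row every H23 library lay above every H1437 and PC9 library, and H23 was 14.0 times H1437 and 10.9 times PC9 (exact permutation P = 0.10 each, the smallest possible; over the lines P = 0.0357, 0.0857 adjusted). Such a separation of H23 was common: it was seen on 40.5% of the 37 gene rows and on 31.6% of the 38 CDS, rRNA, tRNA, and D-loop rows. Among the 4 genes, CYTB on its gene row was the only case, and on the CDS and tRNA rows none of the 4 was separated. The share of reads that mapped moved with these levels, at 11.0% to 24.4% in the H23 libraries against 1.89% to 7.45% in those of the other lines. Its part in them was not tested, and per mapped read the adjusted permutation P of all 4 genes was 0.671. The study's text instead gives the highest average mapped share to H1437. It also describes the highest mtdsRNA signal in H23 and reports a significant enrichment of aligned reads in H23 alone. In the deposited counts every H23 replicate had a higher mapped share than every H1437 replicate. The alignment names carry the same line names as the labels. Every contrast of H23 with H1437 rests on these names, since the counts cannot identify a cell line.

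**Figure D2:**
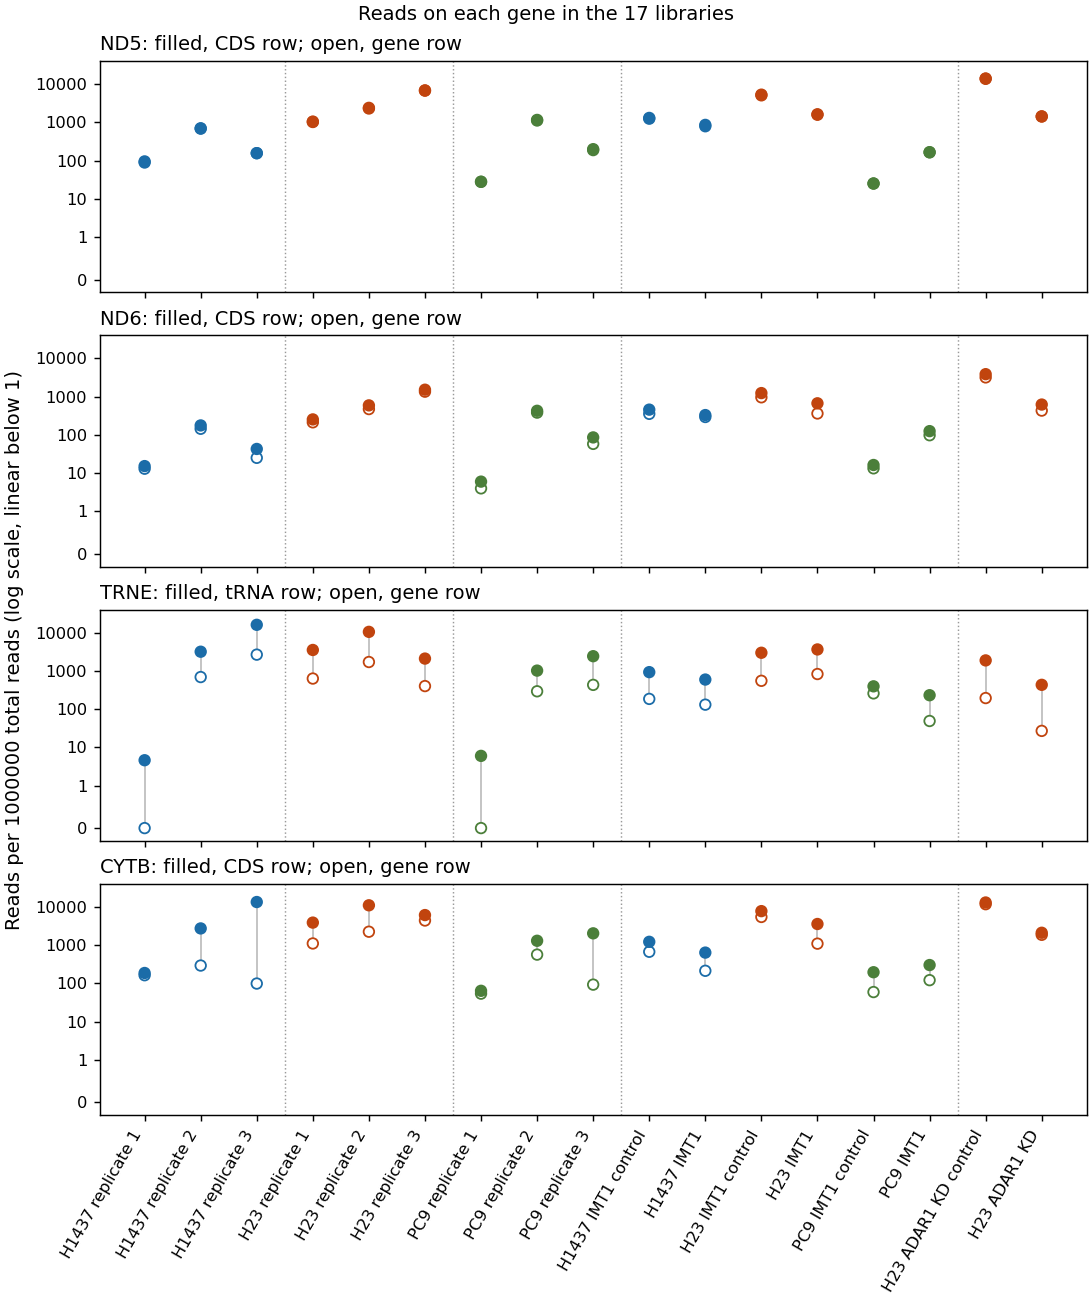
Reads per 1000000 total reads on a logarithmic axis (linear below 1) in the 17 libraries, with filled points for the CDS or tRNA row, open points for the gene row, and grey lines joining both. The points coincide for ND5, whereas for CYTB they lie as far apart as 13379 and 98.9 in H1437 replicate 3.

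Set per base, TRNE was the highest of the 4 genes in 16 of 17 libraries on the CDS and tRNA rows, the exception being H1437 replicate 1, where CYTB was highest. A read counts once on a row whether it covers all of that row or a small part, so that dividing by length can raise a short gene. Read lengths were not used here, and levels per base of genes of unequal length are set side by side with that limit. TRNE per base was between 2.30 and 2843 times ND6, its neighbour on the same strand (median 18.2 over 17 libraries). Over the 9 untreated libraries the mean log2 ratio was 5.75 ± 3.11 (SD), and the exact sign-flip permutation test gave P = 0.00391, the smallest that 9 libraries allow (0.00521 adjusted over 4 ratios). On gene rows the mean was 3.30 ± 3.96 (exact permutation P = 0.0352, 0.0677 adjusted), with 0 reads of TRNE in 2 libraries. TRNE has 69 bases and ND6 has 525, so that neither test can tell more TRNE from the effect of dividing by length.

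CYTB per base exceeded ND5, the other plus-strand gene, in 17 of 17 libraries on the CDS rows, by 1.18 to 136 times (median 3.11). In the 9 untreated libraries the mean log2 ratio was 2.66 ± 1.97 (exact sign-flip permutation P = 0.00391, 0.00521 adjusted). On gene rows CYTB exceeded ND5 in 12 of 17 libraries, and the mean log2 ratio was 0.37 ± 0.80 (exact permutation P = 0.215, also 0.215 adjusted). The excess of CYTB over ND5 thus passed the test on the CDS rows and not on the gene rows, which leave out the gap reads described above.

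ND6 per base stood close to ND5, the neighbour on the opposite strand that it touches. In order of replicate, H1437 gave ratios of ND6 to ND5 of 0.552, 0.870, and 0.944, H23 gave 0.836, 0.850, and 0.764, and PC9 gave 0.740, 1.27, and 1.49. Some of these ratios rest on few reads: PC9 replicate 1 held 3 on ND6 and 14 on ND5. H1437 replicate 3 and H23 replicate 1 held 29 and 31 on ND6. All H1437 and H23 replicates had a ratio below 1, and 2 of the 3 PC9 replicates above it, whereas the H1437 control of the IMT1 experiment stood at 1.21. Over all 17 libraries it ran from 0.552 to 2.60, the highest value being that of PC9 with IMT1, while the level of ND5 ran from 25.2 to 14013 reads per 1000000 total reads. The mean log2 ratio in the untreated libraries was -0.15 ± 0.41 (exact sign-flip permutation P = 0.336), and on gene rows it was -0.46 ± 0.40 (exact permutation P = 0.0156, 0.0625 adjusted). The exact permutation test between the lines gave P = 0.179 (0.714 adjusted).

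Against CYTB on its other side, ND6 per base was lower in 9 of 9 untreated libraries and in 16 of 17 libraries on the CDS rows, the exception being H1437 with IMT1 at 1.12. H1437 gave ratios of 0.178, 0.140, and 0.00695, H23 gave 0.142, 0.117, and 0.540, and PC9 gave 0.204, 0.712, and 0.0917. The mean log2 ratio was -2.81 ± 1.90 (exact sign-flip permutation P = 0.00391, 0.00521 adjusted). On gene rows ND6 was lower in 11 of 17 libraries, and the mean was -0.84 ± 1.11 (exact permutation P = 0.0508, 0.0677 adjusted). Between the lines, the exact permutation P of the ratios of ND6 to CYTB, TRNE to ND6, and CYTB to ND5 was 0.429, 0.846, and 0.607.

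**Figure D3:**
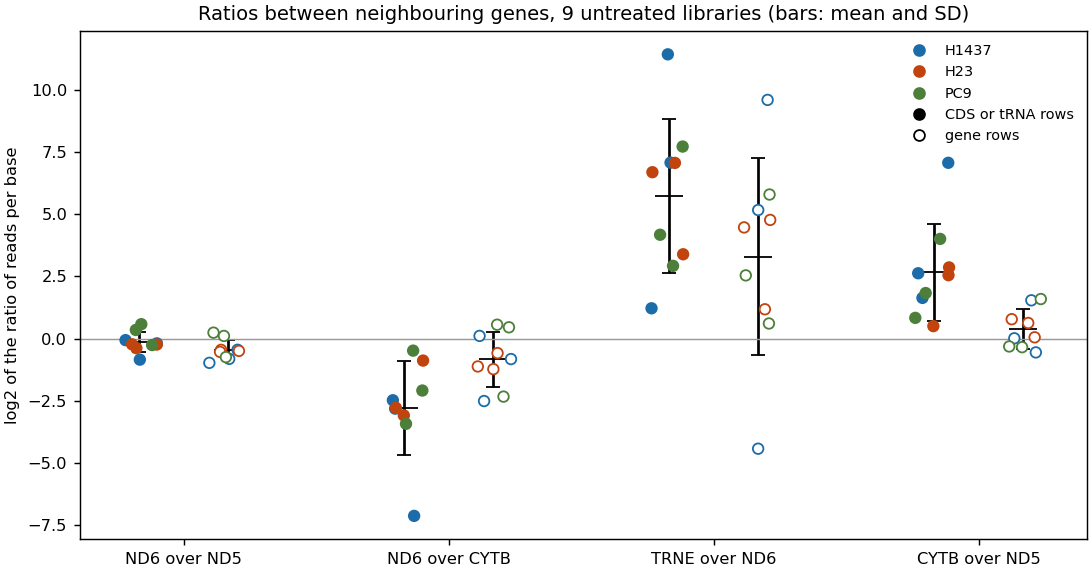
Log2 ratio of reads per base between neighbouring genes in the 9 untreated libraries, with filled points for CDS or tRNA rows and open points for gene rows, coloured by line; black bars give the mean and SD. The ratios that involve CYTB lie nearer to 0 on gene rows (mean -0.84 and 0.37) than on CDS rows (mean -2.81 and 2.66). ND6 over ND5 lies further from 0 on gene rows (mean -0.46) than on CDS rows (mean -0.15).

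In the edgeR quasi-likelihood test across all gene rows, 0 of the 35 genes tested were called between any lines, which is 0% of the genes in each of the 3 contrasts, and none had an unadjusted P below the threshold. The fitted log2 fold change of H23 over H1437 was 1.45 for ND5 (SE 1.03), 1.62 for ND6 (SE 1.16), -2.60 for TRNE (SE 2.24), and 1.16 for CYTB (SE 1.02), with an edgeR adjusted P of 0.548 for each. This test scales each library to its mitochondrial reads, and the median over all 35 genes was 0.10, against 1.98 when total reads were taken as the library size. The estimate of TRNE turned to 0.79 with the replicate number as a block, and that of CYTB to -1.68 on CDS rows. Among all 35 genes tested, 18 had a positive estimate. Of the complex I subunits ND1, ND2, ND3, ND4L, ND4, ND5, and ND6, 0 of 7 passed, 7 of 7 had a positive estimate, and their median was 1.45. Of the 9 minus-strand genes 0 passed and 5 had a positive estimate (median 0.10), and of the 12 CDS genes tested 0 passed and 12 had a positive estimate (median 1.19). DESeq2 called 4 genes in this contrast and 2 between H23 and PC9, none of them among the 4 genes described here. With the tRNA genes left out, edgeR called 6 of 14 genes, CYTB among them (log2 fold change 0.71, SE 0.23, edgeR adjusted P = 0.0475).

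The genes that flank the region differed from the members and from one another. TRNL2 was between 0 and 217 reads per 1000000 total reads in the 17 libraries. TRNT was between 7.98 and 612. TRNP, the proline tRNA on the minus strand behind TRNT, was between 106 and 27004 and kept 99.9% to 100% of its reads on its gene row in the untreated libraries of the 3 lines, whereas TRNT kept 30.2% to 61.0%. Ranked by reads per base on the CDS rows of the 13 CDS genes, CYTB was between first and 7th (median 4), ND5 between 5th and 12th (median 9), and ND6 between first and 12th (median 8). TRNE was between first and 16th of the 22 tRNA genes (median 4).

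By the share of mapped reads over the 17 libraries, the members formed pairs of neighbours. ND5 and ND6 had a Spearman correlation of 0.95, and ND6 was the row most like ND5 among the 37 others, followed by ND4 (0.88), another complex I subunit. For ND6 the rows most like it were ND5 and ND4 (0.82). TRNE and CYTB had a correlation of 0.88. The rows most like TRNE were TRNN (0.90), the asparagine tRNA, and CYTB, and those most like CYTB were TRNK (0.88), the lysine tRNA, and TRNE. Between the pairs the correlations were lower, from 0.16 for ND5 with TRNE to 0.30 for ND5 with CYTB. These values describe 17 libraries of 3 lines that share a denominator, and TRNE and CYTB may share reads on these rows.

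With IMT1, the J2-bound reads of none of the 4 genes moved the same way in all 3 lines per total reads, whereas 35.1% of the 37 rows with reads in all 3 controls were lower in all 3 lines. In H1437, ND5 was at 1307 reads per 1000000 total reads in the control and 858 with IMT1. In H23 the same values were 5300 and 1626, and in PC9 they were 25.2 and 166. It was thus lower in H1437 and H23, by 1.52 and 3.26 times, and 6.45 times higher in PC9. For ND6 the pairs were 457 and 329 in H1437, 1236 and 668 in H23, and 16.3 and 125 in PC9. The control of PC9 held 17 reads on ND5 and 11 on ND6, so that its ratios rest on few reads.

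On the CDS row of CYTB, control and IMT1 stood at 1220 and 637 in H1437, 7733 and 3564 in H23, and 195 and 301 in PC9. On its gene row the pairs were 669.6 and 213, 5445 and 1092, and 59.2 and 121. TRNE gave 926 and 593, 2973 and 3630, and 394 and 231 in the same order, so that here H23 was the line that differed in direction. The mean log2 ratio over the lines was 0.13 ± 2.29 (SD, n = 3) for ND5, 0.51 ± 2.07 for ND6, -0.37 ± 0.58 for TRNE, and -0.48 ± 0.96 for CYTB. The exact sign-flip permutation P was 1, 1, 0.50, and 0.50, and 3 pairs cannot give less than 0.25.

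The treated libraries lay mostly inside the range of the libraries without IMT1. Of the 12 values of 4 genes in 3 treated libraries, 11 fell between the lowest and the highest library of the same line without IMT1, the siNTC control included. The exception was CYTB in H23, whose 3564 was below the lowest of these 5 H23 libraries (3876). The mapped share itself was lower with IMT1 in each line, at 5.30% and 1.14% in H1437, 30.5% and 9.83% in H23, and 6.73% and 3.94% in PC9, and per mapped read most values were higher with IMT1. ND5 was 2.46% of mapped reads in the H1437 control and 7.50% with IMT1, 1.74% and 1.65% in H23, and 0.0374% and 0.422% in PC9. CYTB was at 2.30% and 5.57%, 2.53% and 3.63%, and 0.291% and 0.764%, a mean log2 ratio of 1.06 (exact permutation P = 0.25, the smallest possible).

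The ratio of ND6 to ND5 was higher with IMT1 in 3 of 3 lines, by 0.13, 0.82, and 0.20 on the log2 scale in H1437, H23, and PC9, and that of ND6 to CYTB by 0.46, 0.23, and 2.27 (exact permutation P = 0.25 each, the smallest possible). The ratios of TRNE to ND6 and of CYTB to ND5 moved in different directions. The share of CYTB reads kept on the gene row changed by -21.5, -39.8, and 9.96 percentage points. In the edgeR test of IMT1 with the cell line as a block, 0 of 33 genes were called (0%, 2 at an unadjusted P below 0.05), and the edgeR adjusted P of each of the 4 genes was 0.972. DESeq2 called 3 genes, none of them among the 4.

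With ADAR1 KD in H23, all 4 genes were 4.35 to 9.81 times lower than in the control per total reads, and 97.4% of the 38 rows were lower by 2-fold or more. With 1 library on each side there is no test. The mapped share was 47.2% in the control and 11.0% with KD, against 11.0% to 30.5% in the 4 untreated H23 libraries. The KD library was also the shallowest of all, with 37113 total reads. The part of the mapped share and of depth in these differences was not tested. Intervals are 95% Wilson intervals of counting error alone, and they are too narrow where amplified reads are copies of the same molecule. The control held 3099 reads on ND5, 854 on ND6, 415 on TRNE, and 2875 on CYTB, and the KD library, with 4100 mapped reads in all, held 53, 23, 16, and 78. Per 1000000 total reads, control and KD stood at 14013 and 1428 for ND5, 3862 and 620 for ND6, 1877 and 431 for TRNE, and 13000 and 2102 for CYTB. Beside the 4 untreated H23 libraries, the siNTC control was the highest for ND5, ND6, and CYTB and the lowest for TRNE. The KD values of TRNE and CYTB lay below all 5 of these libraries, whereas ND5 lay above 1 and ND6 above 2 of them.

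Per mapped read the differences were smaller and unequal. ND5 was 2.97% of the mapped reads in the control (interval 2.87% to 3.07%) and 1.29% with KD (0.990% to 1.69%). CYTB was 2.75% (2.66% to 2.85%) and 1.90% (1.53% to 2.37%). ND6 was 0.818% (0.765% to 0.874%) and 0.561% (0.374% to 0.840%), and TRNE was 0.397% (0.361% to 0.437%) and 0.390% (0.240% to 0.633%). The ratio of control to KD, with a 95% interval of counting error on the log scale, was 2.30 (1.75 to 3.01) for ND5, 1.45 (1.16 to 1.81) for CYTB, and 1.02 (0.618 to 1.68) for TRNE. For ND6 it was 1.46 (0.963 to 2.21) on the CDS row and 1.72 (1.05 to 2.83) on the gene row. ND5 was the only member at least 2-fold lower by this measure, as were 28.9% of the 38 rows, and the median log2 ratio over the rows was -0.36. The log2 ratio of ND6 to ND5 per base was -0.07 in the control and 0.60 with KD, and CYTB kept 90.3% and 88.5% of its reads on the gene row.

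**Figure D4:**
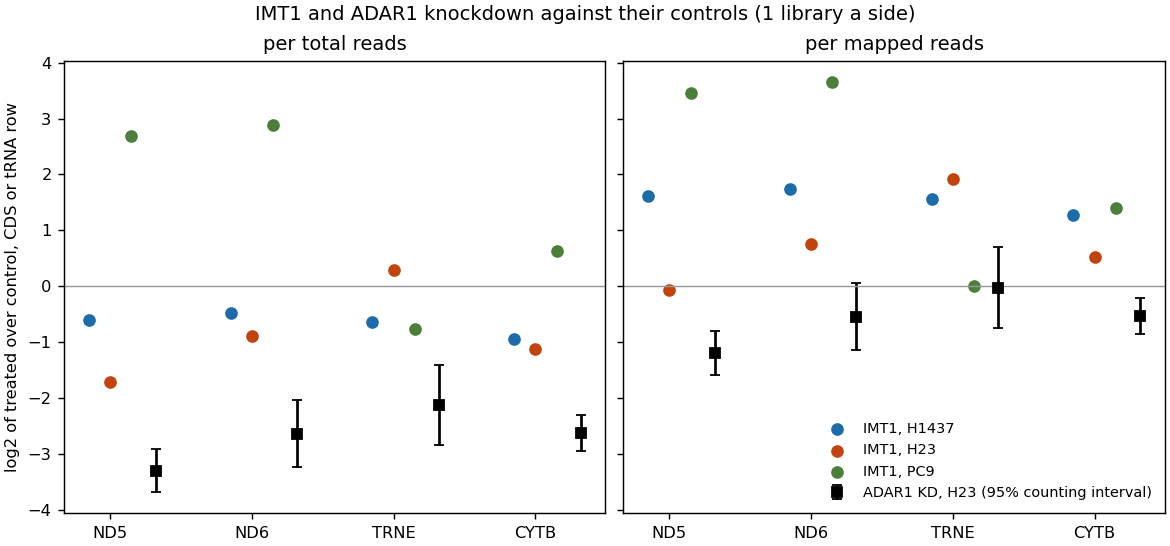
Log2 ratio of treated over control on the CDS or tRNA row, per total reads (left) and per mapped reads (right); coloured points are the IMT1 pairs of the 3 lines and black squares the ADAR1 KD pair of H23 with its 95% counting interval. Per total reads the PC9 points of ND5 and ND6 (2.69 and 2.89) lie opposite to those of H1437 and H23, and most IMT1 points lie higher per mapped read.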

How the data were processed

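J2 RIP-seq reads of 17 libraries were base-called with Dorado, and the authors aligned them only to the mitochondrial genome, using minimap2 2.17-r941. The authors deposited raw featureCounts counts of 99 annotation rows and the mapped and total read counts of each library, obtained with SAMtools 1.10, with the percent mapped that the authors computed from them. No count was normalized. Levels are counts per 1000000 total reads on the CDS row (ND5, ND6, CYTB) or tRNA row (TRNE), and log2 ratios between genes or treatments add 0.5 to each count. Coordinates are those of the revised Cambridge Reference Sequence, and all 37 genes matched RefSeq by symbol. No sequence of these genes was at hand beyond the primers.

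Tests were two-sided exact permutation tests (scipy 1.17.1, numpy 2.4.6, pandas 2.3.3, Python 3.11.15; 100000 draws where a line held over 3 libraries), edgeR 4.0.16 (quasi-likelihood, TMM, R 4.3.3) on genes that reached 10 counts in 3 or more libraries, and DESeq2 1.42.0 as an alternative, with Benjamini-Hochberg adjustment at 0.05. The edgeR and permutation code was tested on simulated data. Replicates of a line differed beyond sampling noise by chi-square (at least 35.5 per degree of freedom), and none were merged. The members and lists were chosen with earlier results of these data known. Beside the members, the text names the flanking tRNA genes and the 2 rows most like each member. The comparison of the gaps between rows, the genes ND1, ATP8, ND2, and TRNW, and the ranks were chosen after seeing the data. Alternatives covered the kind of row, the denominator, the scale, the libraries and controls used, the pseudocount, the filter, the tool, the replicate block, and each replicate.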

Additional observations from a re-analysis of the deposited data

Results flagged for a closer look

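The effect of IMT1 per total reads differed in direction between cell lines for each of the 4 genes, with 1 library on each side in each line, so that the difference was not tested. For ND5, ND6, and CYTB the PC9 pair stood opposite to H1437 and H23, with a log2 ratio of 2.69, 2.89, and 0.62. For TRNE the H23 pair stood opposite to the others, with a log2 ratio of 0.29. The PC9 control held 17 reads on ND5 and 11 on ND6. The part of depth in these differences was not tested.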

How the results depend on the processing

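Alternatives gave 355 values, of which 309 were classed as unchanged. For tested values between lines or genes this meant the same direction and side of the threshold, and for IMT1 levels the same direction. For KD it meant a shift within counting error, and for genes called an equal count. On gene rows, 3 mean log2 ratios per base no longer passed: ND6 over CYTB (-0.84), TRNE over ND6 (3.30), and CYTB over ND5 (0.37). The difference of H23 from the other lines in these ratios, which passed in no setting, turned to -0.22, 0.26, and 0.17. With the first 2 experiments together, the levels of ND5 (3.09) and ND6 (2.55, log2 of H23 over the other lines) passed. Per mapped read, H23 over the other lines turned to -1.02 for TRNE and -0.55 for CYTB, and the mean log2 ratio of IMT1 to 1.17 and 1.06. With the 4 untreated libraries of each line as control, that of ND5 turned to -0.58. With the siNTC control added to the untreated libraries, the H23 difference of the TRNE gene-row share turned to -4.86 percentage points. The cause was not tested.

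Leaving out 1 library, the H23 level difference ran from 2.14 (without H23 replicate 3) to 3.99 (without PC9 replicate 2) for ND5 and from 1.75 to 3.66 without the same libraries for ND6. It ran from -0.43 (without H23 replicate 2) to 1.97 (without H1437 replicate 3) for TRNE and from 0.60 to 2.43 without the same libraries for CYTB, none passing, and that in TRNE over ND6 from -1.38 to 1.17. The H23 differences of the gene-row share ran from -0.49 to 1.15 points (ND5), -0.27 to 6.92 (TRNE), and -14.1 to 15.4 (CYTB), none passing. Without 1 pair, IMT1 ran from -1.16 to 1.04 (ND5) and -0.68 to 1.21 (ND6), both negative without PC9.

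With ADAR1 KD the log2 ratios per mapped read were -1.20 (ND5), -0.54 (ND6), -0.026 (TRNE), and -0.53 (CYTB), and against the mean of the 4 untreated H23 libraries and the siNTC control -2.05, -1.27, -3.28, and -1.99. TRNE on the gene row (1 read with KD) gave -2.85.

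DESeq2 called 4 genes for H23 over H1437, 2 for H23 over PC9, and 3 for IMT1, against 0, and edgeR without tRNA genes called 6 for H23 over H1437. Fitted CYTB over the same lines was -1.68 on CDS rows. Same-numbered libraries deviated together between H1437 and PC9 (correlations 0.58 to 0.89), but not with H23 (-0.74 to 0.08), so that the numbers were not taken as pairs over the 3 lines. With the replicate block, edgeR called 0 genes, TRNE in H23 over H1437 turned to 0.79, and the adjusted permutation P of the levels ran from 0.167 to 0.556. The fewest mapped reads were 4100 in the KD library, 5424 in H1437 with IMT1, and 9468 in PC9 replicate 1.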
